A study of Mus musculus with 9 samples.

Results

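Steroid receptors and their coregulators were followed here as 8 genes, taken from the count table by symbol: the estrogen receptors Esr1 and Esr2, the glucocorticoid receptor Nr3c1, the coactivators Ncoa1, Ncoa2 and Ncoa3, and the corepressors Ncor1 and Nrip1. The 8 genes were all present among the 39253 genes of the table. RNA had been sequenced from CD4+ T cells on day 9 of experimental autoimmune encephalomyelitis (EAE), an induced autoimmune disease of mice used as a model of multiple sclerosis. All 9 samples share the cell type, the disease and the day. Of them 5 are labelled ERα KO (estrogen receptor alpha knockout) and 4 wildtype, with 3 knockout and 2 wildtype samples in batch 1 and 2 knockout and 2 wildtype samples in batch 2. The labels do not give the allele, the cells in which the knockout acts, the strain, the age, the sex or the organ of origin, and the series title speaks of ERα in dendritic cells, so they do not say whether the T cells of the knockout group lack ERα.

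Steroid receptors are transcription factors that are switched on by hormone. A receptor without hormone is held by heat shock protein chaperones, and after binding hormone it settles on DNA and recruits coactivators of the p160 family, encoded by Ncoa1, Ncoa2 and Ncoa3, which bring in histone acetyltransferases. Corepressors such as NCoR1, which carries histone deacetylase complexes, and RIP140, the product of Nrip1, act against them. In T cells the glucocorticoid receptor is the best known member of the family, through which glucocorticoids restrain inflammation and kill thymocytes, and ERα is known to be present at low level.

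The promoters of both estrogen receptors and of a coactivator are shown because Esr1 and Esr2 were the lowest of the 8 genes and Ncoa1 the one that varied least between libraries. The RefSeq promoter table (GRCm38.p6, not the GRCm39 build named for the counts) held 8 start windows for 5 of the 8 genes. The 250 bases before the start are given 5′ to 3′ for the most upstream Esr1 start (chr10:4611739-4611988, plus strand), for Esr2 (chr12:76177260-76177509, minus strand) and for Ncoa1 (chr12:4477183-4477432, minus strand), with GC boxes and CCAAT boxes of either strand in capitals.
Esr1: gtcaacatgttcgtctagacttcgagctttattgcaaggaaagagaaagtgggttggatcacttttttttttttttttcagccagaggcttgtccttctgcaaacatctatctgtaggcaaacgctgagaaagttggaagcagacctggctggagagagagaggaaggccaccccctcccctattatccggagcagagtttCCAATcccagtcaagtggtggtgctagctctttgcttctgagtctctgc
Esr2: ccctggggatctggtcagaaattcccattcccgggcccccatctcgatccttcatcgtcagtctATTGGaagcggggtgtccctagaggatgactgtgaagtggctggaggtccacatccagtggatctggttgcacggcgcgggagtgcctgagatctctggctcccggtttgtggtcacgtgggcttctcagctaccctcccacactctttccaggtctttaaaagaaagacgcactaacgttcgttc
Ncoa1: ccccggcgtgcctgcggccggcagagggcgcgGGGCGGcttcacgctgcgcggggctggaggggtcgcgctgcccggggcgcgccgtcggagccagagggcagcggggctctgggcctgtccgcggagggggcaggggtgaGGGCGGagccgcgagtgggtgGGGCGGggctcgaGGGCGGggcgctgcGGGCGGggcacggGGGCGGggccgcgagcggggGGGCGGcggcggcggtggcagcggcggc
The Ncoa1 window held 7 GC boxes (GGGCGG on either strand) and 40 CG dinucleotides, and 85.6% of its bases were G or C. The Esr1 window held 0 GC boxes, 1 CCAAT box, 4 CG dinucleotides and 47.6% G or C, and the Esr2 window 0 GC boxes, 1 CCAAT box, 12 CG dinucleotides and 56.4%. The windows not shown varied within a gene. Those of Ncor1 held 0 and 2 GC boxes with 36.8% and 73.6% G or C, and those of Nrip1 0 and 2 with 51.2% and 73.6%. The other Esr1 window held 0 GC boxes, 7 CG dinucleotides and 59.6% G or C. Of the 8 windows of these genes, 3 held a GC box and 2 a CCAAT box. Among all 32851 windows of the table, 32.7% held a GC box and 33.8% a CCAAT box, with a median of 6 CG dinucleotides. The estrogen response element half-site AGGTCA, which 14% of all windows held on either strand, was in 0 of the 8 windows of these genes, and so were the full estrogen response element palindrome (0.0639% of all windows), which overlaps the half-site, and the glucocorticoid response element palindrome (0.00913%). These are letter matches in short windows and say nothing on binding elsewhere.

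Depth and background differed between the batches. Totals were 4926347 to 11296593 counts in batch 1 and 45013017 to 69844721 counts in batch 2, so that a floor of 3 counts stood at 0.266 to 0.609 counts per 1000000 (CPM) in batch 1 and 0.043 to 0.0666 CPM in batch 2. Genes of smell, pheromone and taste receptors, 1514 sensory receptor genes that T cells do not use, took 0.0577% to 0.256% of the counts in batch 1 and 0.00258% to 0.0037% in batch 2. T cell markers were abundant, with summed levels of 2814 to 4130 CPM over 6 genes, against 9.71 to 18.9 CPM for the 2 CD8 genes. Neutrophil markers (6 genes) summed to 525 to 896 CPM in the knockout and 254 to 659 CPM in the wildtype libraries of batch 1. Erythroid (red blood cell) markers (5 genes) summed to 1487 CPM in wildtype replicate 3. They were at 72.3 CPM in wildtype replicate 4 and at 93.9 and 102 CPM in the knockout libraries of batch 2. Xist, which coats the silenced X in female cells, was at 2680 and 2375 CPM in knockout replicates 1 and 2 and at 2638 and 1745 CPM in wildtype replicates 1 and 2, against 30.4 CPM in knockout replicate 3 and 0 to 0.289 CPM in batch 2. Ddx3y, a gene of the Y chromosome, was at 55.4 CPM in knockout replicate 3, at 93.6 to 107 CPM in batch 2 and at 0 in the 4 other libraries, so sex, as these genes mark it, follows the batch apart from 1 library.

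The coregulators and the glucocorticoid receptor were expressed in every library, and the estrogen receptors were low or not detected. With levels divided by the length of each gene's longest annotated transcript, the knockout libraries of batch 2 had Ncor1 first at 115 to 117 CPM per kb, then Ncoa3 at 64.1 to 67.8, Nrip1 at 41.6 to 42.8, Ncoa2 at 37.5 to 39.2, Nr3c1 at 27.8 to 30.0 and Ncoa1 at 12. The wildtype libraries of batch 2 had the same order, from Ncor1 at 108 to 124 CPM per kb to Ncoa1 at 10.4 to 11.6, with Nrip1 (32.6 to 37.9) and Ncoa2 (32.3 to 33.0) overlapping. Esr1 stood at 0.0226 and 0.0404 CPM per kb in the knockout and at 0.228 and 0.266 in the wildtype libraries of batch 2, below every coregulator. In the knockout libraries of batch 1 Ncoa2 stood above Nrip1, which overlapped with Nr3c1, and in the wildtype libraries of batch 1 the order was that of batch 2.

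**Figure D1:**
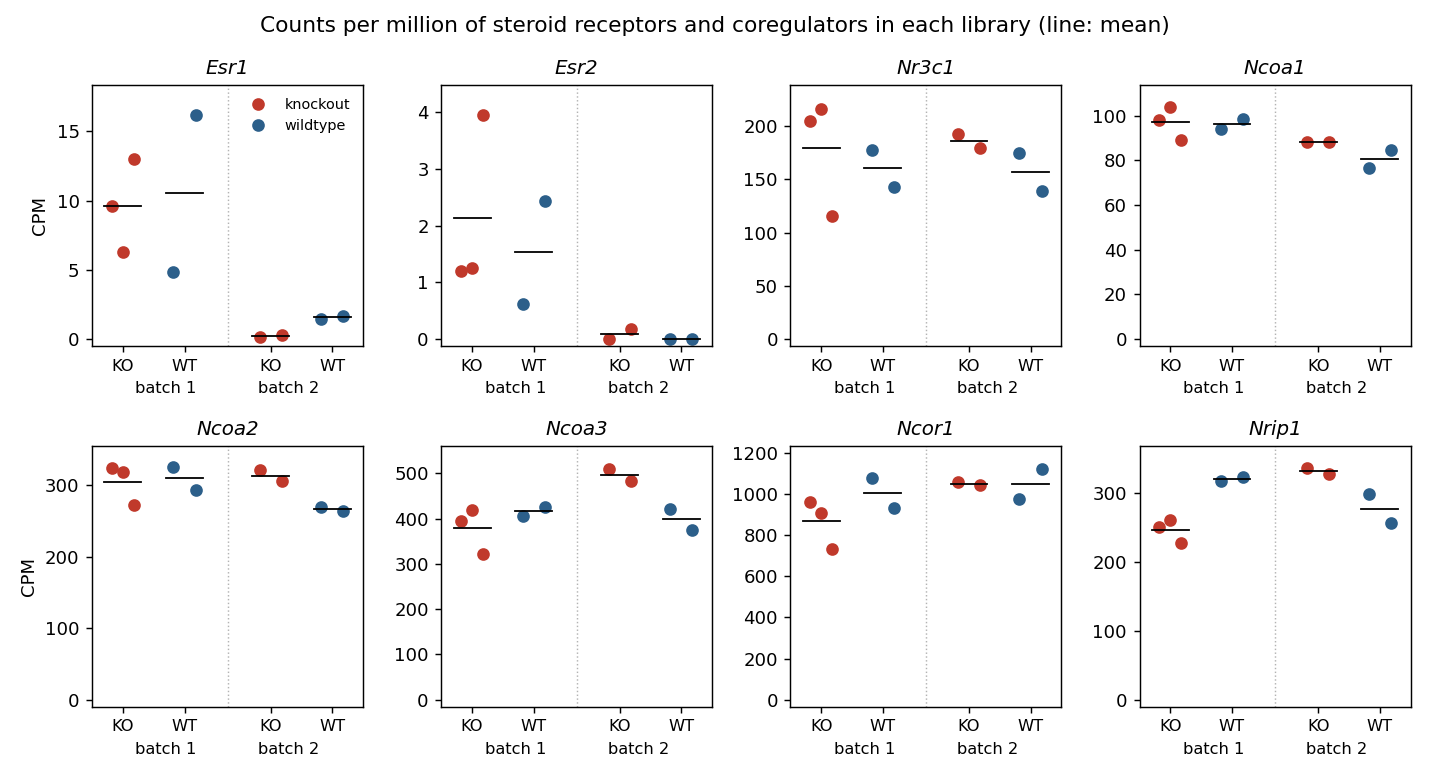
CPM of the 8 genes in each of the 9 libraries, with knockout (KO) left of wildtype (WT) within each batch; points are libraries and lines are means of 2 or 3 libraries. Esr1 in batch 2 is at 0.143 and 0.256 CPM in knockout and 1.45 and 1.69 CPM in wildtype libraries, and Nrip1 is lower in the knockout in batch 1 and higher in batch 2.

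Esr1 encodes ERα, the receptor that the knockout targets. The knockout libraries of batch 2 held 9 and 14 Esr1 counts (0.143 and 0.256 CPM), against 101 and 76 counts (1.45 and 1.69 CPM) in the wildtype libraries. The groups did not overlap, as was so with the knockout lower for 20.5% of all genes tested there, and the mean level was 7.85-fold higher in the wildtype. The log2 fold change was -2.96 ± 0.70 (SE), which did not pass adjustment over all genes in edgeR (adjusted p = 0.618), whereas DESeq2 gave -2.97 ± 0.83 and called it (adjusted p = 0.0245). Without 1 of the 4 libraries in turn the edgeR value lay between -3.42 and -2.59 (adjusted p from 0.21 to 1.00). Dendritic cells also express Esr1, and the summed level of 10 dendritic cell markers was 81.1 and 98.7 CPM in these knockout and 92.4 and 92.6 CPM in these wildtype libraries, which overlap. That sum includes the antigen presentation genes H2-Aa, H2-Ab1 and Cd74, which are not made by dendritic cells alone, so it need not follow their number. Markers of monocytes and macrophages (7 genes) summed to 78.9 and 113 CPM in the knockout and 124 and 153 CPM in the wildtype libraries, and 6 neutrophil markers to 4.28 and 6.55 CPM in the knockout and 157 and 16 CPM in the wildtype libraries. The monocyte and macrophage sum and the neutrophil sum were both lower in the knockout without overlap, as Esr1 was. The part of these cells, dendritic cells included, in the Esr1 values was not tested. In bulk RNA, fewer cells of a type and less RNA per cell cannot be told apart.

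In batch 1 the genotypes overlapped in Esr1. It was at 9.58, 6.31 and 13.0 CPM in the knockout libraries, against 4.87 and 16.2 CPM in the wildtype libraries, and the log2 fold change was -0.21 ± 0.47 (edgeR adjusted p = 1.00). The value turned to 0.59 without wildtype replicate 2. Dendritic cell markers summed to 199, 463 and 93.5 CPM in the knockout and to 172 and 96.2 CPM in the wildtype libraries of batch 1, and monocyte and macrophage markers to 237, 276 and 250 CPM in the knockout and to 208 and 91.1 CPM in the wildtype libraries. Their part was not tested. The interaction of batch and genotype was -2.79 ± 0.88 for Esr1 (edgeR adjusted p = 0.505, DESeq2 adjusted p = 0.142), so the batches were not shown to differ. Over both batches Esr1 had -1.41 ± 0.64 (edgeR adjusted p = 1.00), with -0.90 without knockout replicate 4, -2.10 without wildtype replicate 1 and -0.12 with no batch term.

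The level of Esr1 was next set beside that of the sensory receptor genes in the same library, both per kb of transcript. In batch 1 Esr1 was 7.46, 5.33 and 4.39 times their mean in the knockout libraries and 7.30 and 9.11 times in the wildtype libraries. In batch 2 it was 4.65 and 8.27 times their mean in the knockout libraries, inside the range of batch 1, and 44.2 and 38.3 times in the wildtype libraries, above it. The 2 wildtype libraries of batch 2 were thus the ones in which Esr1 stood farthest above the genes that T cells do not use. The batches are not alike in this measure, since the median sensory receptor gene had 0 CPM in each batch 2 library and 0.266 to 1.38 CPM in batch 1. The batch 2 mean rests on a small part of these genes. There, 10 Esr2 counts in knockout replicate 5 already gave a ratio of 11.1. A like ratio in both batches therefore does not show that Esr1 stood at the same background in both.

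Genes of reproductive tissue gave a scale for these ratios. Pgr, the progesterone receptor and a classic estrogen target, was 10.2 to 12.1 times the sensory receptor mean in the knockout and 11.8 and 12.5 times in the wildtype libraries of batch 1. Greb1, another estrogen target of the uterus and breast, was 2.04 to 2.20 times in the knockout and 2.09 and 2.24 times in the wildtype libraries of batch 1. In batch 2 Pgr was at 0 CPM in both knockout libraries and at 0.0573 and 0.267 CPM in the wildtype libraries, and Greb1 was at 0 and 0.238 CPM in the knockout and at 0 in both wildtype libraries. The cause of the levels in batch 1 was not tested.

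**Figure D2:**
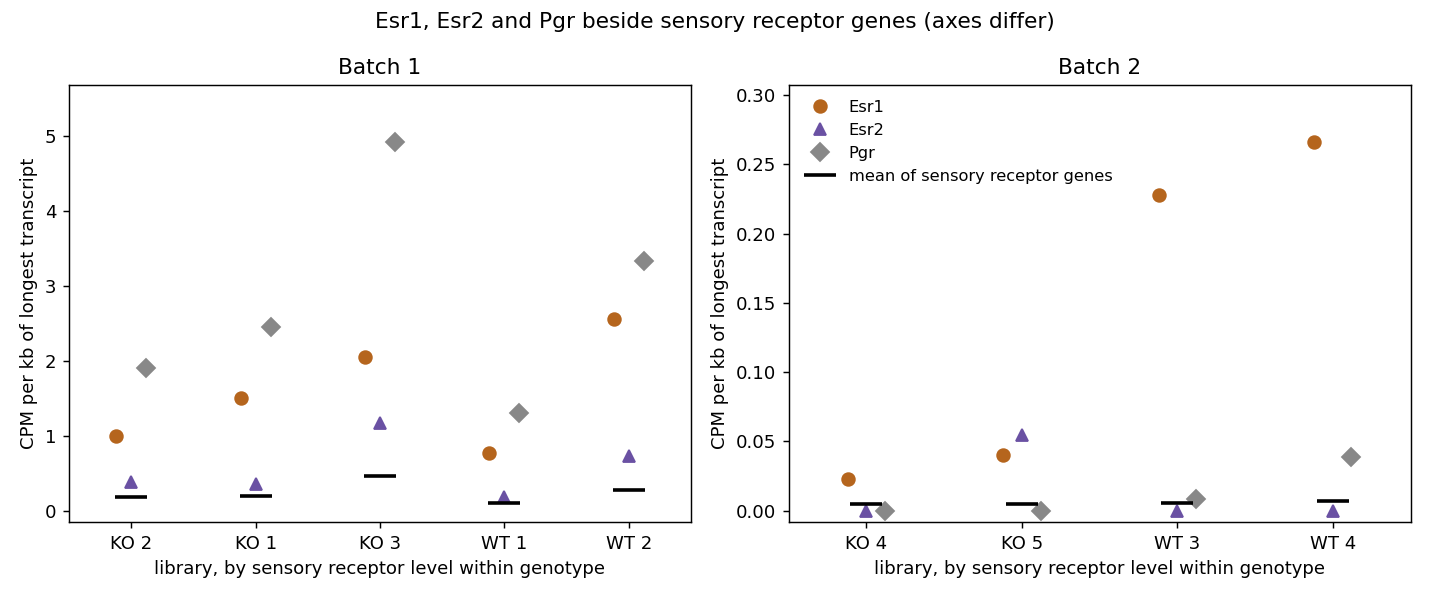
Level of Esr1, Esr2 and Pgr per kb of their longest transcript in each library, beside the mean of the sensory receptor genes, with knockout (KO) left of wildtype (WT) and a separate vertical scale for each batch. In batch 1 Esr1 is 4.39 to 9.11 times the sensory receptor mean, and in batch 2 it is 4.65 and 8.27 times in knockout and 44.2 and 38.3 times in wildtype libraries.

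Esr2 encodes estrogen receptor β. It had 9, 11 and 20 counts in the knockout and 7 and 12 counts in the wildtype libraries of batch 1, which is 1.2, 1.26 and 3.95 CPM and 0.62 and 2.44 CPM. These groups overlapped, and the levels were 1.76 to 2.51 times the sensory receptor mean per kb in the knockout and 1.75 and 2.58 times in the wildtype libraries. The knockout libraries of batch 2 held 0 and 10 Esr2 counts, against 0 in both wildtype libraries, where a count of 0 allows up to 0.043 and 0.0666 CPM. It did not pass the low-count filter in batch 2, and over both batches its log2 fold change was 1.42 ± 1.09 (edgeR adjusted p = 1.00). That value was 0.43 without knockout replicate 5, which held the 10 counts, 0.89 without wildtype replicate 3 and 2.30 without wildtype replicate 2.

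Nr3c1, the glucocorticoid receptor, was the highest receptor gene of the 3. It was at 205, 216 and 116 CPM in the knockout and 178 and 143 CPM in the wildtype libraries of batch 1, which overlap. The batch 2 levels were 193 and 179 CPM in the knockout and 175 and 139 CPM in the wildtype libraries. All knockout values were above the wildtype ones, as they were for 19.6% of all genes tested there. The log2 fold change was 0.04 ± 0.39 in batch 1 (edgeR adjusted p = 1.00) and 0.24 ± 0.16 in batch 2 (edgeR adjusted p = 0.745), and the batch 2 value was 0.05 when wildtype replicate 4 was left out and 0.46 when replicate 3 was.

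The 3 p160 coactivators, which bind hormone-loaded receptors and recruit acetyltransferases, had overlapping genotypes in batch 1 and knockout values above wildtype values in batch 2. So did 19.6% of all genes tested in batch 2, 11 of 27 other coactivators and 9 of 21 other corepressors. Summed T cell markers also separated this way in batch 2 (4130 and 4123 against 3605 and 3831 CPM), and the opposite way in batch 1. Their part was not tested. Ncoa1 was at 98.2, 104 and 89.0 CPM in the knockout and 94.1 and 98.7 CPM in the wildtype libraries of batch 1, and at 88.2 and 88.3 CPM in the knockout and 76.6 and 84.7 CPM in the wildtype libraries of batch 2. It was the steadiest of the 8 genes, with a root mean square spread of 0.09 on the log2 CPM scale over the 9 libraries. Ncoa2 was at 324, 318 and 272 CPM in the knockout and 326 and 294 CPM in the wildtype libraries of batch 1, and at 321 and 306 CPM in the knockout and 270 and 264 CPM in the wildtype libraries of batch 2. Ncoa3 was at 395, 419 and 322 CPM in the knockout and 406 and 426 CPM in the wildtype libraries of batch 1, and at 510 and 482 CPM in the knockout and 421 and 375 CPM in the wildtype libraries of batch 2. The log2 fold changes in batch 2 were 0.14 ± 0.10 for Ncoa1, 0.24 ± 0.10 for Ncoa2 and 0.32 ± 0.12 for Ncoa3 (edgeR adjusted p = 0.772, 0.645 and 0.626). In batch 1 they were -0.12 ± 0.37, -0.16 ± 0.37 and -0.25 ± 0.37, each with an edgeR adjusted p of 1.00.

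The corepressor Ncor1, the scaffold of a histone deacetylase complex, overlapped between genotypes in both batches. It was at 958, 908 and 733 CPM in the knockout and 1076 and 930 CPM in the wildtype libraries of batch 1, and at 1056 and 1043 CPM in the knockout and 974 and 1123 CPM in the wildtype libraries of batch 2. The log2 fold change was -0.35 ± 0.37 in batch 1 (edgeR adjusted p = 1.00) and 0.01 ± 0.10 in batch 2 (edgeR adjusted p = 0.991).

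Nrip1, an estrogen-induced corepressor in breast cells, was the gene of the 8 whose groups separated in opposite directions. It was at 251, 261 and 228 CPM in the knockout and 318 and 323 CPM in the wildtype libraries of batch 1, so every knockout value was lower. The batch 2 levels were 336 and 327 CPM in the knockout and 298 and 257 CPM in the wildtype libraries, so every knockout value was higher. Of all genes tested, 5.19% separated with the knockout lower in batch 1 and 19.6% with the knockout higher in batch 2. The log2 fold change was -0.51 ± 0.36 in batch 1 (edgeR adjusted p = 1.00) and 0.26 ± 0.13 in batch 2 (edgeR adjusted p = 0.692). The interaction of batch and genotype was 0.67 ± 0.23 and did not pass (edgeR adjusted p = 0.533, DESeq2 adjusted p = 0.0649). The summed T cell markers moved the same way, at 2927, 2984 and 2814 CPM in the knockout and 3452 and 3259 CPM in the wildtype libraries of batch 1, and at 4130 and 4123 CPM in the knockout and 3605 and 3831 CPM in the wildtype libraries of batch 2. Their part in the Nrip1 values was not tested.

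**Figure D3:**
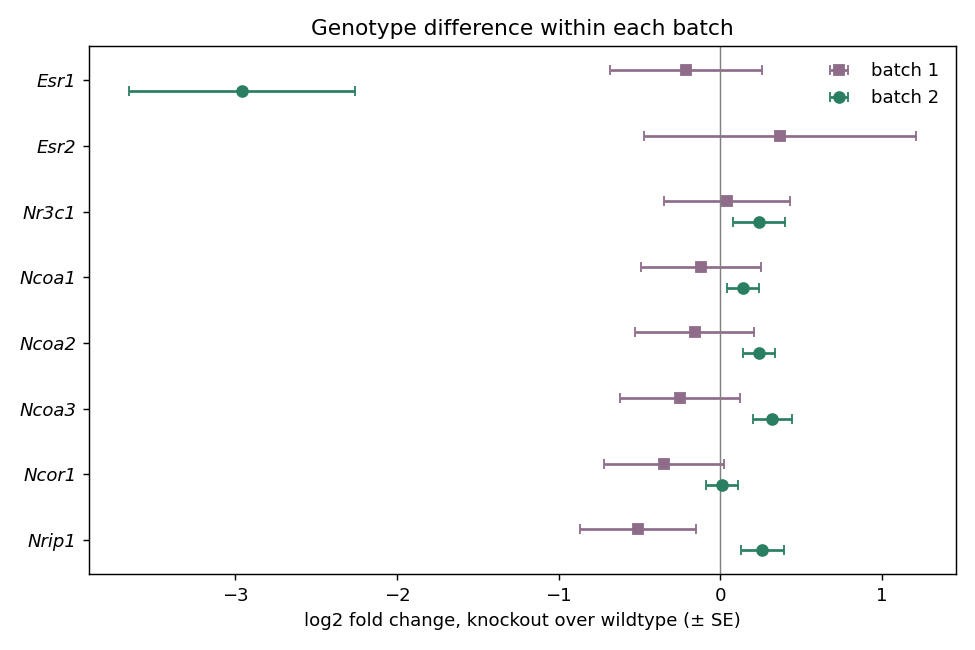
Log2 fold change of knockout over wildtype with its standard error for the 8 genes, within batch 1 (squares, 3 against 2 libraries) and within batch 2 (circles, 2 against 2 libraries). Esr1 in batch 2, at -2.96 ± 0.70, lies apart from the others; Esr2 was not tested in batch 2.

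Counted together, 0 of the 8 genes passed the edgeR threshold of an adjusted p under 0.05 over both batches, where 0.00451% of 22197 tested genes passed and 2.36% had an unadjusted p under 0.05 (0 of the 8). DESeq2 called 0 of the 8 over both batches and 0.0721% of all genes. In batch 1, 0 of 8 passed, against 0.126% of 24600 genes (0.0732% higher and 0.0528% lower in the knockout), and 0 of 8 had an unadjusted p under 0.05, against 1.97%. In batch 2, 0 of the 7 that passed the low-count filter were called, as were 0% of 15910 genes, and with DESeq2 1 of 7, Esr1, against 2.07%. An unadjusted p under 0.05 in batch 2 was given to Esr1 and Ncoa3, 2 of 7, against 7.77% of all genes. Groups that did not overlap with the knockout higher were found for 0 of 8 genes in batch 1 (10.9% of all tested genes) and for 5 of 7 in batch 2 (19.6%), and with the knockout lower for 1 of 8 in batch 1 (5.19%) and 1 of 7 in batch 2 (20.5%). For the interaction, 0 of 8 passed in edgeR (0.00451% of all genes) and in DESeq2 (0.743%), and Esr1 and Nrip1, 2 of 8, had an unadjusted p under 0.05 in edgeR (8.36%). The median over the tested genes among the 8 was a log2 fold change of 0.04 over both batches, -0.19 in batch 1 and 0.24 in batch 2, against 0.01, 0.04 and -0.02 for all genes.

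The batches themselves differed in 5 of the 8 genes, where 64.1% of all genes passed. Taken over all genes, the median of batch 2 over batch 1 was -0.76 on the log2 scale. Esr1 at -3.92 ± 0.70 and Esr2 at -5.26 ± 1.25 were lower in batch 2 (edgeR adjusted p = 0.000555 and 0.0036), as were 47.3% of all genes. Ncoa3 at 0.40 ± 0.14, Ncor1 at 0.40 ± 0.13 and Nrip1 at 0.36 ± 0.15 were higher (edgeR adjusted p = 0.0255, 0.0202 and 0.0474), as were 16.8%. DESeq2 called 4 of the 8, against 64.9% of all genes, leaving out Nrip1. Scaling by DESeq2 size factors ended the calls of Ncoa3 and Nrip1, and scaling by the upper quartile left Esr1 and Esr2 called. Depth and the sensory receptor counts follow the batch, as does sex by Xist and Ddx3y apart from 1 library. Some cell markers follow it too. Neutrophil markers summed to 254 to 896 CPM in batch 1 and 4.28 to 157 CPM in batch 2, and B cell markers to 37.1 to 77.7 and 6.13 to 12.4 CPM. Erythroid and T cell markers were higher in batch 2 without overlap, and the other marker sums overlapped. The parts of depth, sensory receptor counts, sex and cell content cannot be told apart. Knockout replicate 3, the library of batch 1 with Ddx3y and little Xist, had 13.0 CPM of Esr1 and 3.95 CPM of Esr2, above the 0.143 to 1.69 CPM and 0 to 0.183 CPM of batch 2. It also had the highest sensory receptor share (0.256%), and its Esr1 was 4.39 times their mean, the lowest ratio of the 9 libraries. The part of sex was not tested.

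Other steroid receptors are given as context. Nr3c2, the mineralocorticoid receptor, was at 2.27 and 3.24 CPM in the knockout and 1.43 and 1.07 CPM in the wildtype libraries of batch 2, and overlapped in batch 1, with 0.91 ± 0.35 over both batches (edgeR adjusted p = 1.00). Gper1, a membrane estrogen receptor, was at 0.127 and 0 CPM in the knockout and at 0 in the wildtype libraries of batch 2, with 1.67 ± 1.07 over both batches, and Pgr had -0.50 ± 0.78 (edgeR adjusted p = 1.00 for both). With 1 library left out Gper1 was tested in 6 of 9 cases, from 0.91 without knockout replicate 4 to 3.56 without wildtype replicate 2, and Pgr lay between -1.29 without wildtype replicate 1 and 0.02 without wildtype replicate 4.

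Among other cofactors, 0 of 27 coactivators and 0 of 21 corepressors passed in either batch or over both. In batch 1, 24 of 27 coactivators and 20 of 21 corepressors had negative values, with medians of -0.18 and -0.22 against 0.04 for all genes. Of all genes tested there, 53.8% were positive. Some of these signs depend on the scaling. The batch 1 CPM ratio of knockout over wildtype was 1.01 for Med1 and Hdac3, 0.956 for Ep300 and 0.857 for Crebbp. Their TMM log2 fold changes were -0.15, -0.16, -0.20 and -0.36, with SE of 0.36 or 0.37. In batch 2, 20 of 27 and 15 of 21 had positive values, with medians of 0.04 and 0.07 against -0.02, where 47.8% of all genes were positive. Over both batches the acetyltransferases Crebbp and Ep300 had -0.03 ± 0.12 and 0.00 ± 0.11, the Mediator subunit Med1 0.01 ± 0.12 and Hdac3, the deacetylase of the NCoR1 complex, -0.03 ± 0.14, each with an edgeR adjusted p of 1.00. Crebbp separated as Nrip1 did, at 769, 759 and 730 CPM in the knockout and 849 and 907 CPM in the wildtype libraries of batch 1, and at 902 and 914 CPM in the knockout and 755 and 766 CPM in the wildtype libraries of batch 2, with an interaction of 0.51 ± 0.20 (edgeR adjusted p = 0.591).

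The chaperones that hold unliganded receptors had a median of -0.02 over both batches, with 5 of 16 genes positive and 0 called. Among all genes tested, the median was 0.01 and 51.4% were positive. Hsp90ab1, the constitutive HSP90, had -0.23 ± 0.26, and Ptges3, its cochaperone p23, had 0.14 ± 0.23 (edgeR adjusted p = 1.00 for both).

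Target genes of the receptors had 0 edgeR calls in each batch and over both. Of 16 tested estrogen targets, 8 were positive and 8 negative over both batches, with a median of -0.01, and Greb1 had 1.43 ± 1.05 (edgeR adjusted p = 1.00). Greb1 was at 0.45 without knockout replicate 5 and at 2.06 without wildtype replicate 2. In batch 2, 5 of 12 were positive, with a median of -0.18, against 47.8% and -0.02 for all genes. The lowest value was that of Ltf at -4.29 ± 1.46 (edgeR adjusted p = 0.638). Ltf, chosen after its value was seen, is also a granule protein of neutrophils, whose 6 markers summed to 4.28 and 6.55 CPM in the knockout and 157 and 16 CPM in the wildtype libraries of batch 2, and their part was not tested. Of 20 glucocorticoid targets tested in batch 2, 15 were negative, with a median of -0.32. Among all 15910 genes tested there, 8307 were negative, with a median of -0.02. The groups of 10 did not overlap with the knockout lower (20.5% of all genes), and those of 4 with the knockout higher (19.6%). In batch 1, 10 of 19 were negative, with a median of -0.08, against 11376 of 24600 and 0.04 for all genes. Of the best known targets in batch 2, Tsc22d3, the glucocorticoid-induced leucine zipper GILZ, had 0.41 ± 0.22 and Fkbp5, a feedback inhibitor of the receptor, -0.18 ± 0.19 (edgeR adjusted p = 0.712 and 0.858). Sgk1 at -0.50 ± 0.10, Anxa1 at -0.99 ± 0.24 and Dusp1 at -1.50 ± 0.40 were among the negative ones (edgeR adjusted p = 0.618, 0.618 and 0.625), and were chosen after their values were seen. Without wildtype replicate 3, 12 of 20 were negative and the median was -0.16. Without wildtype replicate 4, 15 were negative and the median was -0.48. Leaving out knockout replicate 4 or 5 gave medians of -0.30 and -0.32. DESeq2 on all 4 libraries called 3 of 20, where it called 2.07% of all genes.

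**Figure D4:**
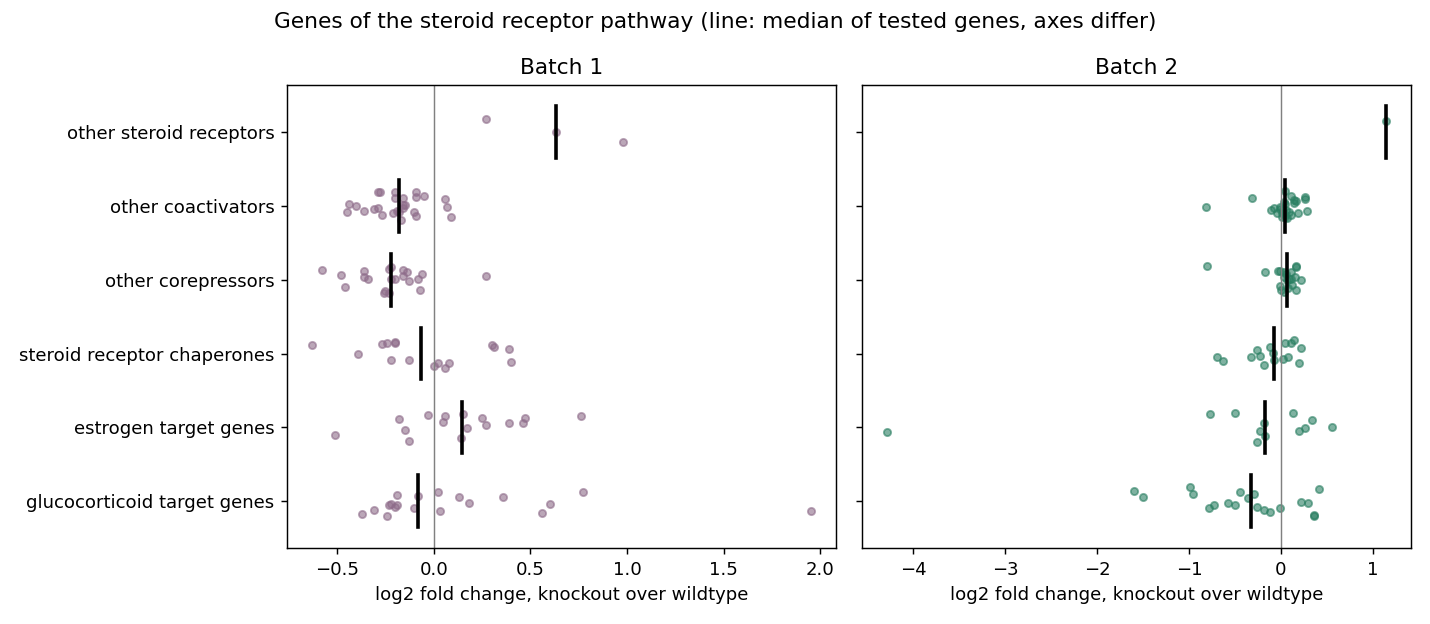
Log2 fold change of knockout over wildtype for the tested genes of 6 lists within batch 1 (left) and batch 2 (right), each point a gene and each line the median of its list, with separate horizontal scales. Coactivators and corepressors have medians of -0.18 and -0.22 in batch 1 and of 0.04 and 0.07 in batch 2, and glucocorticoid targets have -0.08 and -0.32.

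The genes nearest in pattern were found as those with the smallest root mean square difference of log2 CPM over the 9 libraries after centring each gene on its mean, among 15890 tested genes. For Esr1 these were Gpr3, at a difference of 0.30, and Tmem151a at 0.35, where the spread of Esr1 itself was 2.05. For Esr2 they were Gng4 at 0.22 and Il34 at 0.23. For Nr3c1 they were Usp33 at 0.10 and Ifnar2 at 0.11, and for Ncoa1 Chd6 at 0.05 and Togaram1 at 0.06. Ncoa2 was nearest to Ccser2 and Dyrk2, at 0.05 each, and Ncoa3 to Efr3a at 0.05 and Arhgef3 at 0.06. Ncor1 was nearest to Acin1 and Riok1, at 0.03 each, and Nrip1 to Slc30a5 at 0.05 and Phf3 at 0.07. Within the 8 genes, the nearest to Nrip1 was Ncoa3, at 0.10, and the nearest to Esr1 was Esr2, at 1.30.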

How the data were processed

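A single table came from the authors, which holds deposited expected counts (estimated read numbers) for each gene with its symbol, per the file headers. The labels' protocols name the Ovation kit and single-end reads. GRCm39, R 4.0.3 and Salmon 1.2.0 come from the submitters' processing notes, which give no role for any of them. Which annotation release, strand setting or filter was used is not given in the sources used here. Nonzero values were whole in 0 of 236181 cases, so a scaling by transcript length is possible, and values rounded to whole numbers are called counts on that reservation. Reads of overlapping antisense genes may be mixed.

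Counts were tested with edgeR 4.0.16 in R 4.3.3: the robust quasi-likelihood test with TMM scaling, the default low-count filter applied by genotype (minimum count 10, minimum total 15) and Benjamini-Hochberg adjustment over all genes tested. The models were batch plus genotype, genotype within each batch, and their interaction. Standard errors come from the F statistic. CPM are counts divided by the library total, so their ratios differ from the TMM fold changes, in batch 1 enough to turn a sign. Med1, Hdac3 and Ncoa1 each had a batch 1 CPM ratio of knockout over wildtype of 1.01. Their log2 fold changes there were -0.15, -0.16 and -0.12. The test was also run on simulated counts with the same noise set for all genes. That run does not carry the differences between these libraries, so it says nothing on how the test behaves on them. Lengths are the longest GENCODE vM21 (GRCm38) transcript of each symbol, and 97.9% of the sensory receptor genes had one.

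The 8 genes and the lists were chosen with earlier results of these data known. Named besides the 8 were 14 fixed genes (others are not reported here), up to 4 called genes of each list in each genotype comparison, and the 2 nearest genes of each. No library pair of 1 genotype and batch agreed within sampling noise (their chi-square over its degrees of freedom was 4.8 or more). This ratio was 4.8 to 23.3 in batch 1. In batch 2 it was 30.5 for the knockout pair and 153 for the wildtype pair, on which every batch 2 comparison rests. The labels do not say which samples are separate animals, so p-values reflect only how these samples vary, which may be technical. Floors cover counting error only. Alternatives were DESeq2 1.42.0, its size factors, upper-quartile scaling, other filters, limma-voom (limma 3.58.1), no batch term, a replicate block, the sensory receptor share as covariate, and leaving out each library.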

Additional observations from a re-analysis of the deposited data

Results flagged for a closer look

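In 44 sets of libraries, each the 4 wildtype or 5 knockout libraries for 1 of 22 genes, 3 held a library far from the others, and chance would give about 2.2 in sets of alike libraries. Each set pools both batches. Gper1 was at 2.23 CPM in wildtype replicate 2, where the other wildtype libraries had 0 to 0.177 CPM. Med1 was at 161 CPM in wildtype replicate 2, against 206 to 209 CPM in the others. For Hsp90ab1, knockout replicate 3 had 617 CPM, and the other knockout libraries had 1392 to 1666 CPM.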

How the results depend on the processing

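The number of genes past the threshold over both batches was 1, and it was 16 with the DESeq2 Wald test, 2 with no low-count filter, 0 with a filter of at least 1 CPM in every sample, 0 with no batch term and 2 with the receptor share as covariate; without 1 library it was 0 to 3. The number of genes past the threshold in batch 1 was 31, and it was 56 with DESeq2 size factors, 6 with upper-quartile scaling, 68 with no low-count filter, 3 with a filter of at least 1 CPM in every sample, 12 with limma-voom and 58 with the replicate block; without 1 library it was 33 to 118. The number of genes past the threshold in batch 2 was 0, and it was 329 with the DESeq2 Wald test and 34 with no low-count filter; without 1 library it was 0 to 879. The number of genes past the threshold for the interaction was 1, and it was 165 with the DESeq2 Wald test, 2 with no low-count filter, 2 with a filter of at least 1 CPM in every sample and 0 with limma-voom; without 1 library it was 1 to 238. The number of genes past the threshold between batches was 14221, and it was 25837 with no low-count filter and 2281 with a filter of at least 1 CPM in every sample; without 1 library it was 11456 to 18656. Of the 8 genes, 5 differed between batches, against 3 with DESeq2 size factors, 2 with upper-quartile scaling and 0 with a filter of at least 1 CPM in every sample and 2 to 5 without 1 library. In batch 2, 1 of the 8 genes passed with the DESeq2 Wald test. With upper-quartile scaling 1 of 6 calls in batch 1 was higher in the knockout, against 18 of 31, and 1353 of 12494 calls between batches were higher, against 3724 of 14221. A change of sign came with the replicate block for Esr2 over both batches (-0.04), Hdac3 over both batches (0.04), Hsp90ab1 over both batches (0.14), Esr2 in batch 1 (-0.05), Ncoa1 in batch 1 (0.06) and Ncoa2 in batch 1 (0.04). Signs also changed with no low-count filter for Ncoa1 over both batches (-0.04), Ncoa2 over both batches (-0.02), Ncoa3 over both batches (-0.03), Med1 over both batches (-0.09), Ep300 over both batches (-0.08) and Nr3c1 in batch 1 (-0.01). The sign turned with no batch term for Pgr over both batches (0.62), Med1 over both batches (-0.03), Ep300 over both batches (-0.02), Ptges3 over both batches (-0.01) and Ddx3y over both batches (0.00). A change of sign came with the receptor share as covariate for Hdac3 over both batches (0.00). Signs also changed with upper-quartile scaling for Fkbp5 over both batches (0.01), Ncoa1 between batches (-0.17) and Ncoa2 between batches (-0.06). The sign turned with a filter of at least 1 CPM in every sample for Fkbp5 over both batches (0.01), Ncor1 in batch 2 (-0.02), Ncoa1 between batches (-0.19) and Ncoa2 between batches (-0.08). A change of sign came with limma-voom for Esr1 in batch 1 (0.01) and Nr3c1 in batch 1 (-0.03). Signs also changed with DESeq2 size factors for Nr3c1 in batch 1 (-0.09) and Ncoa1 between batches (-0.04). The sign turned with the DESeq2 Wald test for Nr3c1 in batch 1 (-0.09) and Ncoa1 between batches (-0.05). Leaving out 1 library also turned the sign of Nr3c1 over both batches (0.00 to 0.28), Ncoa1 over both batches (-0.07 to 0.07), Ncoa2 over both batches (-0.07 to 0.14), Ncoa3 over both batches (-0.05 to 0.12), Pgr over both batches (-1.29 to 0.02), Hdac3 over both batches (-0.24 to 0.06), Med1 over both batches (-0.20 to 0.11), Crebbp over both batches (-0.16 to 0.00), Ep300 over both batches (-0.12 to 0.04), Fkbp5 over both batches (-0.22 to 0.11), Ptges3 over both batches (-0.22 to 0.26), Esr1 in batch 1 (-0.78 to 0.59), Esr2 in batch 1 (-0.31 to 1.29), Nr3c1 in batch 1 (-0.27 to 0.40), Ncoa1 in batch 1 (-0.28 to 0.03), Ncoa2 in batch 1 (-0.41 to 0.09), Ncor1 in batch 2 (-0.06 to 0.07), Esr2 for the interaction (-0.47 to 4.87), Nr3c1 for the interaction (-0.23 to 0.49), Ncor1 for the interaction (-0.01 to 0.60) and Ncoa1 between batches (0.00 to 0.26). None of these reversed values was past the threshold, and the cause was not tested. Same-numbered samples correlated at 0.25, -0.33, -0.16 and -0.17 in their deviations from the group means over 11648 genes. These values cannot decide whether samples were paired. The samples numbered 3 lie in different batches, and in a group of 2 libraries the deviations mirror each other. Greb1 over both batches was at 0.08 with the replicate block. Depth limits Esr1 and Esr2, which had 0 to 20 counts in several libraries.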
